A study of Vitis vinifera with 6 samples.

Results

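The 8 genes described here encode the enzymes that open flavonoid synthesis and lead from it to the flavonols, and they were followed in young grapevine leaves (*Vitis vinifera*, cultivar Shiraz). They were chosen by gene identifier, without using their levels but with earlier results of these data known: the chalcone synthases *CHS1* (VIT_14s0068g00930), *CHS2* (VIT_14s0068g00920) and *CHS3* (VIT_05s0136g00260), the chalcone isomerase *CHI1* (VIT_13s0067g03820), the flavanone 3-hydroxylases *F3H1* (VIT_04s0023g03370) and *F3H2* (VIT_18s0001g14310), the flavonoid 3'-hydroxylase *F3'H* (VIT_17s0000g07200) and the flavonol synthase *FLS* (VIT_18s0001g03470). Each was read by a single probe, 8 of the 34369 gene probes on the array, and 7 of the 8 were bright enough to be tested. The RNA came from OXNAC33 plants (3 arrays) and from control plants (3 arrays). OXNAC33 plants stably carried *VviNAC33*, a NAC transcription factor gene, under a constitutive promoter of cauliflower mosaic virus, which is not limited to any leaf cell type. According to the methods of the study, the plants were regenerated from embryogenic calli, the OXNAC33 replicates were separate transgenic lines, picked for high *VviNAC33* expression by qPCR, and the control construct carried *eGFP*. Which control plants gave the control arrays is not given in the labels, and no age or treatment is given. The labels place the sampling of the young leaves at the onset of the phenotype, while the text of the study places it before.

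In flavonoid synthesis, chalcone synthase joins a coumaroyl group from the phenylpropanoid pathway to malonyl units. Chalcone isomerase closes the ring, flavanone 3-hydroxylase makes dihydroflavonols, and flavonoid 3'-hydroxylase adds a hydroxyl group to the B ring. The dihydroflavonols stand at a fork, where flavonol synthase draws them towards flavonols, the ultraviolet-absorbing pigments of young leaves, and dihydroflavonol reductase draws them towards anthocyanins and proanthocyanidins.

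The overexpressed gene was read first. The *VviNAC33* probe (VIT_19s0027g00230) gave log2 levels of -0.54, -3.89 and -0.998 on OXNAC33 arrays 1, 2 and 3, against -5.22, -4.14 and -4.01 on control arrays 1, 2 and 3. All levels given here are log2 intensities minus the 75th percentile of that array, so that 0 is the level of a fairly bright probe. OXNAC33 replicates 1 and 3 stood well above every control, and the array labelled OXNAC33 replicate 2 exceeded the highest control by little. Its *VviNAC33* level thus goes against its label, which leaves in doubt whether the array carries an overexpressing line, and the changes of the early flavonoid genes are given with and without it. The change, always OXNAC33 minus control, was 2.65 ± 0.88 on the log2 scale (SE, n = 3 arrays each, adjusted p = 0.116). Adjusted p-values are from limma adjusted by Benjamini-Hochberg across the 23907 probes tested, with a threshold of 0.05. The 6 leaf markers listed, genes of the light-harvesting complexes and photosystems, were all well above background on all arrays, and their groups overlapped in 6 of 6 cases. Over all probes tested, 20.4% had every OXNAC33 array below every control array.

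Levels of the early flavonoid genes were below those of the controls on most OXNAC33 arrays, and by far the most on the array labelled OXNAC33 replicate 3. Of the 7 genes tested, 7 had a negative change and 5 had every OXNAC33 array below every control array, a separation seen in 20.4% of all probes tested. Their median change was -1.93, where that of all probes was -0.01. None passed the test, as 0 of 7 had an adjusted p under 0.05 in limma. Over all probes the share called was 5.02%, with 3.33% called lower in OXNAC33. At an unadjusted limma p under 0.05, 5 of the 7 were lower, against a background of 15.6% of all probes. The methods' t-test, run on the same values, called 0 of 7 after adjustment, against 0.00837% of all probes, and 1 of 7 before it, against 24.3% of all probes. In these bulk leaf samples, fewer cells of a type and less RNA per cell cannot be told apart.

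The chalcone synthases, which commit carbon to the flavonoids, were bright on the control arrays. *CHS1* had levels of 3.01, 2.70 and -0.13 on OXNAC33 arrays 1, 2 and 3, against 3.95, 3.75 and 3.68 on control arrays 1, 2 and 3. The groups did not overlap, the controls spanned only 0.27, and OXNAC33 replicate 3 lay far below the rest of its group. The OXNAC33 mean was 1.86 ± 1.73 and the control mean 3.79 ± 0.14 (SD, n = 3 each). The *CHS1* change of -1.93 ± 0.80 (SE), a 3.82-fold lower mean in OXNAC33, had an adjusted p of 0.178 in limma.

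*CHS2*, whose identifier neighbours that of *CHS1* on the same scaffold, had levels of 2.37, 2.28 and -0.88 on OXNAC33 arrays 1, 2 and 3, against 3.64, 3.53 and 4.02 on the control arrays. OXNAC33 replicates 1 and 2 were nearly equal, at least 1.16 below the lowest control, and replicate 3 was again far lower. The mean was 1.26 ± 1.85 in OXNAC33 and 3.73 ± 0.26 in controls (SD, n = 3 each). The change of -2.48 ± 0.86 (SE), or 5.56-fold, had an adjusted p of 0.125 in limma. Chalcone synthase copies are close in sequence, and whether these probes tell *CHS1* from *CHS2* was not tested.

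*CHS3* lies on another chromosome. Its levels were 1.40, 2.27 and 0.34 on OXNAC33 arrays 1, 2 and 3, against 2.72, 3.07 and 3.03 on the control arrays. All OXNAC33 arrays were below all controls, with the OXNAC33 arrays more evenly spread than for the other chalcone synthases. The mean was 1.34 ± 0.97 in OXNAC33 and 2.94 ± 0.19 in controls (SD, n = 3 each). The change was -1.60 ± 0.47 (SE), 3.04-fold, with an adjusted p of 0.0907 in limma. Without OXNAC33 replicate 2, the array with little *VviNAC33*, the *CHS3* change was -2.07 with an adjusted p of 0.032 in limma, the only setting in which an early flavonoid gene had an adjusted p under the threshold. Without that array 10.7% of all probes tested were called.

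*CHI1*, the ring-closing step, had levels of 3.01, 3.02 and 1.26 on OXNAC33 arrays 1, 2 and 3, against 3.17, 3.28 and 3.37 on the control arrays. The groups did not overlap, but only 0.14 separated them, since OXNAC33 replicates 1 and 2 were just below the controls and replicate 3 alone was far below. The mean was 2.43 ± 1.01 in OXNAC33 and 3.27 ± 0.10 in controls (SD, n = 3 each). The change of -0.84 ± 0.49 (SE) had an adjusted p of 0.316 in limma.

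**Figure D1:**
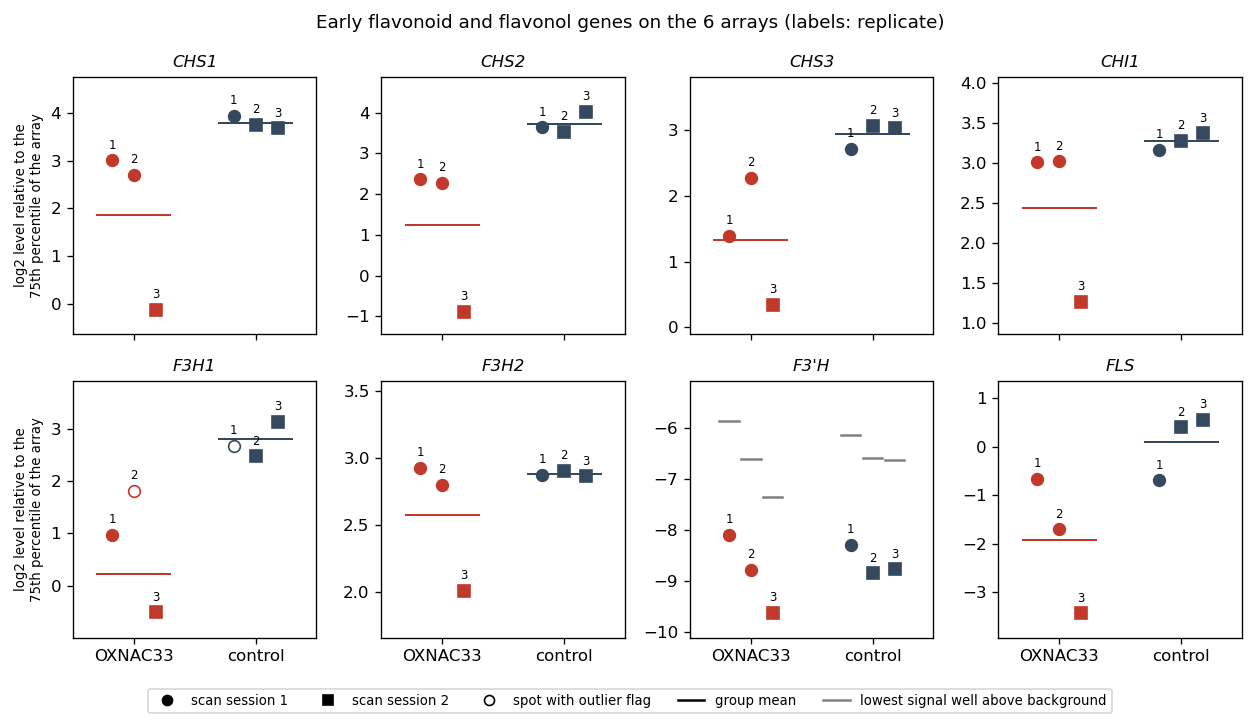
Log2 level minus the 75th percentile of each array (vertical axis, own range in each panel) of the 8 genes on OXNAC33 arrays (red, left) and control arrays (blue, right), with the replicate number at each point. Circles and squares are the 2 scan sessions, open symbols are spots with an outlier flag, horizontal lines are group means over unflagged spots, and grey dashes mark the lowest signal well above background. OXNAC33 replicate 3 is the lowest array in every panel, and the *F3'H* spots all lie under the grey dashes.

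The flavanone 3-hydroxylases, which supply the dihydroflavonols, had changes of unlike size, and neither was called in limma. *F3H1* had levels of 0.97 and -0.52 on OXNAC33 arrays 1 and 3, against 2.48 and 3.14 on control arrays 2 and 3. The spots on OXNAC33 replicate 2 and control replicate 1 carried an outlier flag, were left out of the fit, and read 1.81 and 2.68. With or without the flagged spots, every OXNAC33 level was below every control level. The mean was 0.23 ± 1.05 in OXNAC33 and 2.81 ± 0.47 in controls (SD, n = 2 each). The change of -2.59 ± 0.59 (SE), equal to 6.003-fold, had an adjusted p of 0.0771 in limma, and it was -2.01 with the flagged spots kept (adjusted p = 0.0852).

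*F3H2* had levels of 2.93, 2.80 and 2.005 on OXNAC33 arrays 1, 2 and 3, against 2.87, 2.90 and 2.86 on the control arrays. The groups overlapped: OXNAC33 replicate 1 was above every control, replicate 2 just below them, and only replicate 3 stood apart. The mean was 2.58 ± 0.50 in OXNAC33 and 2.88 ± 0.02 in controls (SD, n = 3 each). The change of -0.30 ± 0.28 (SE) had an adjusted p of 0.529 in limma, and it was -0.02 without OXNAC33 replicate 3.

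*F3'H*, the B-ring hydroxylase, stayed under the limit for a signal well above background on each of the 6 arrays. Its processed intensities were 2.81, 2.22 and 1.64 on OXNAC33 arrays 1, 2 and 3, against 2.89, 1.76 and 2.35 on the control arrays. The lowest signal well above background ranged from 7.87 to 13.2 over the 6 arrays. All 6 readings were therefore below what the arrays could resolve, and neither a fold nor a test is given. The neighbouring identifier, which the study names *F3'Hb* (VIT_17s0000g07210), was bright, with levels of 3.37, 2.94 and 2.60 on OXNAC33 arrays 1, 2 and 3, against 3.98, 4.29 and 4.002 on the control arrays. Its groups did not overlap, and its change of -1.12 ± 0.25 (SE) had an adjusted p of 0.0544 in limma. *F3'Hb* was listed by the study from these samples, so its direction is not independent evidence.

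*FLS*, the flavonol branch, had levels of -0.66, -1.70 and -3.43 on OXNAC33 arrays 1, 2 and 3, against -0.69, 0.40 and 0.55 on the control arrays. The groups overlapped by a small margin, because control replicate 1 read slightly below OXNAC33 replicate 1. The mean was -1.93 ± 1.40 in OXNAC33 and 0.08 ± 0.68 in controls (SD, n = 3 each), so that *FLS* had the widest control spread of the 7 genes. The change of -2.01 ± 0.72 (SE), 4.04-fold, had an adjusted p of 0.133 in limma.

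A single array carried much of these differences. OXNAC33 replicate 3 was the lowest of the OXNAC33 arrays, and also of all 6 arrays, for 7 of 7 genes tested. Among the 23523 probes with a value on all arrays, and among OXNAC33 arrays alone, replicate 3 was the lowest for 36.9%, replicate 2 for 36.7% and replicate 1 for 26.3%. The median distance of the 7 genes from their control means was taken with flagged spots kept. It was -0.78 on OXNAC33 replicate 1, -0.96 on replicate 2 and -3.28 on replicate 3. On control arrays 1, 2 and 3 it was -0.09, 0.01 and 0.10. The order of the OXNAC33 arrays in these medians was not that of *VviNAC33*, whose level was highest on replicate 1 and close to the controls on replicate 2. It also differed by gene. Among OXNAC33 arrays, *CHS3*, *CHI1* and *F3H1* (flagged spot kept) were highest on replicate 2, and *CHS1*, *CHS2*, *F3H2* and *FLS* on replicate 1. A relation to the *VviNAC33* level was not tested. Without replicate 3, the changes of *CHS1*, *CHS2*, *CHS3* and *FLS* were -0.94, -1.41, -1.11 and -1.26, and that of *CHI1* was -0.26. The adjusted p-values in limma were lower than with all arrays for *CHS1* (0.117 against 0.178) and *CHS2* (0.101 against 0.125). They were higher for *CHS3* (0.15 against 0.0907), *FLS* (0.217 against 0.133) and *CHI1* (0.444 against 0.316). *F3H1* could not be fitted without replicate 3, since that leaves a lone unflagged OXNAC33 spot. Without replicate 2, the array whose *VviNAC33* goes against its label, the changes of *CHS1*, *CHS2*, *CHI1*, *F3H2* and *FLS* were -2.35, -2.99, -1.14, -0.41 and -2.13, with adjusted p-values of 0.104 to 0.444 in limma. *F3H1* kept its change of -2.59, since its spot on that array is flagged.

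The arrays had been scanned in 2 sessions, which held both groups. Session 1 held OXNAC33 replicates 1 and 2 with control replicate 1, and session 2 held OXNAC33 replicate 3 with control replicates 2 and 3. Within session 1 the differences of *CHS1*, *CHS2* and *CHS3* were -1.09, -1.32 and -0.88. Within session 2 they were -3.84, -4.66 and -2.71. *FLS* differed by -0.49 in session 1 and by -3.90 in session 2, and *CHI1* by -0.15 and -2.06. *F3H2* differed by -0.01 and -0.88. *F3H1*, with flagged spots kept, differed by -1.29 and -3.33. The sign was the same in both sessions for all 7 genes, while the size was larger in session 2, where replicate 3 is the only OXNAC33 array, so the session and that array cannot be told apart in this respect. With the session as a block, the changes of *CHS1* and *CHS2* were -2.47 and -2.99, with adjusted p-values of 0.0761 and 0.0756 in limma.

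**Figure D2:**
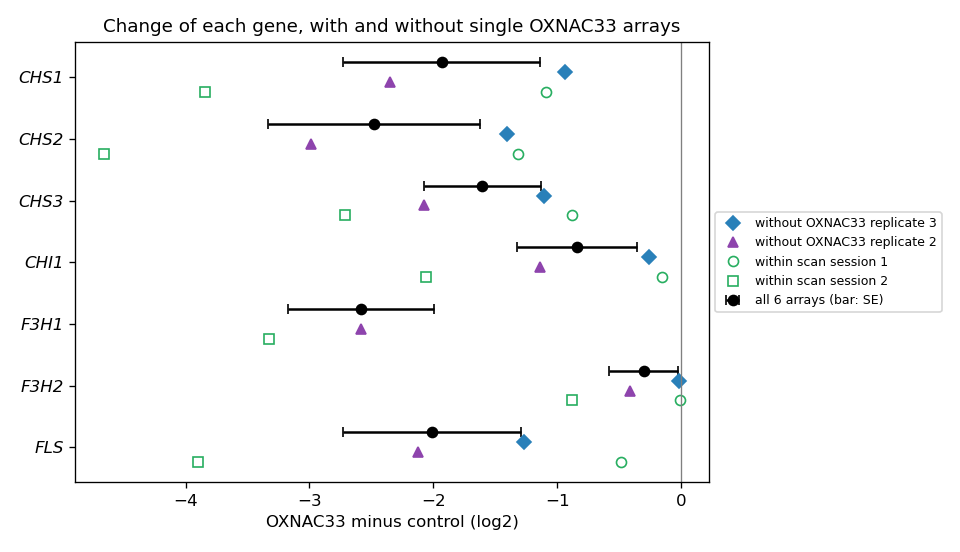
Change in log2 level, OXNAC33 minus control (horizontal axis), of the 7 genes tested. Black circles with bars are the fit on all 6 arrays and its SE, blue diamonds leave out OXNAC33 replicate 3, purple triangles leave out OXNAC33 replicate 2, and open green symbols are the differences within scan session 1 (circle) and 2 (square). Leaving out replicate 3 brings *CHS1* to -0.94 and *F3H2* to -0.02; *F3H1* has no value without replicate 3 or within session 1, for want of unflagged spots.

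To ask whether the early steps and the flavonol branch changed unequally, the level of each gene was taken relative to *FLS* on the same array, which removes any scaling by a constant per array but not the effect of quantile scaling. Groups were compared by a two-sided exact permutation test over arrays, in which 3 against 3 cannot go below p = 0.1. *F3H2* relative to *FLS* was 3.58, 4.50 and 5.43 on OXNAC33 arrays 1, 2 and 3, against 3.56, 2.50 and 2.31 on the control arrays. All OXNAC33 arrays were above all controls, although OXNAC33 replicate 1 exceeded control replicate 1 by little. The difference was 1.71 on the log2 scale (exact permutation p = 0.1, 0.6 after Benjamini-Hochberg adjustment over 6 comparisons). For *CHI1* it was 1.17 (exact permutation p = 0.2). The 3 chalcone synthases kept closer to *FLS*, with differences of 0.08 for *CHS1* (-0.0673 with quantile scaling and -0.0543 with normexp background correction), -0.46 for *CHS2* and 0.41 for *CHS3* (exact permutation p = 0.9, 0.4 and 0.7). *F3H1* relative to *FLS* differed by -0.07 over 2 against 2 arrays, for which the smallest exact permutation p is 0.333, and its p was 1. No comparison could pass the threshold in a design of this size.

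The contrast between the flavanone 3-hydroxylases was chosen after their values were seen. With flagged spots kept, *F3H1* relative to *F3H2* was -1.96, -0.98 and -2.52 on OXNAC33 arrays 1, 2 and 3, against -0.19, -0.42 and 0.28 on the control arrays. The groups did not overlap, and the difference was -1.71 (two-sided exact permutation p = 0.1, the smallest possible). Over the unflagged spots of 2 against 2 arrays it was -2.17 (exact permutation p = 0.333, again the smallest possible).

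**Figure D3:**
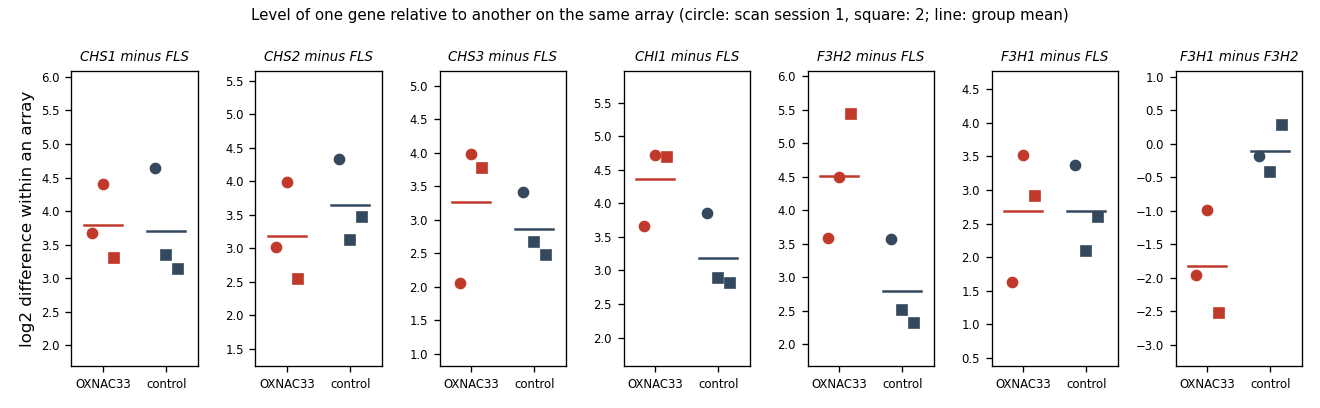
Log2 level of a gene minus that of *FLS* (6 panels) or *F3H2* (last panel) on the same array (vertical axis; every panel spans the same range), for OXNAC33 arrays (red, left) and control arrays (blue, right), flagged *F3H1* spots included. Circles are scan session 1, squares are session 2 and lines are group means. *F3H2* relative to *FLS* averages 4.50 in OXNAC33 and 2.79 in controls, while *CHS1* relative to *FLS* averages 3.79 and 3.71.

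Other probes for the same early steps were taken from the annotations in the tables of the study. Of 6 such probes, 3 were bright enough to be tested, and 1 of the 6, *F3'Hb*, had been listed by the study from these samples. In limma 0 passed the test, against 5.02% of all probes. At an unadjusted limma p under 0.05, 2 were lower, against 15.6% of all probes. These were *F3'Hb*, whose low p follows from how it was listed, and a chalcone isomerase. A chalcone isomerase (VIT_07s0151g01060) had levels of -1.48, -1.57 and -2.28 on OXNAC33 arrays 1, 2 and 3, against -0.84, -1.09 and -0.35 on the control arrays. Its groups did not overlap, and its OXNAC33 arrays were less uneven than those of *CHI1* (change -1.02 ± 0.31, SE, adjusted p = 0.0955). A second flavonol synthase probe (VIT_18s0001g03430) had levels of -1.85, -0.95 and -1.48 on OXNAC33 arrays, against -1.75, -1.16 and -1.78 on control arrays. Its groups overlapped, with a difference of 0.14 ± 0.31 (SE, adjusted p = 0.808), where *FLS* had -2.01.

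Upstream, 5 phenylpropanoid genes were listed and 4 tested, and 2 of the 5 had been listed by the study from these samples. In limma 1 was called higher and 0 lower, where 405 of all 23907 probes tested were called higher and 795 lower. The phenylalanine ammonia-lyase VIT_06s0004g02620, whose enzyme makes cinnamate from phenylalanine, had levels of -0.90, -0.96 and -3.50 on OXNAC33 arrays 1, 2 and 3, against 0.42, 0.27 and 0.31 on the control arrays. Its groups did not overlap and its change was -2.12 ± 0.69 (SE, adjusted p = 0.11). The 4-coumarate-CoA ligases, which make the coumaroyl substrate of chalcone synthase, did not share a direction. VIT_06s0061g00450 rose by 1.09 ± 0.19 (SE, adjusted p = 0.039), with levels of 0.76, 0.41 and 0.58 on OXNAC33 arrays against -0.46, -0.53 and -0.53 on control arrays. The ligases 4CL2 (VIT_17s0000g01790) and 4CL3 (VIT_16s0039g02040) had differences of 0.76 (adjusted p = 0.0633) and -0.64 (adjusted p = 0.463) in the same fit and did not pass. The risen ligase and 4CL2 are those the study listed from these samples.

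Downstream, 5 genes were listed and tested, and 3 of the 5 had been listed by the study from these samples. In limma 1 was called lower, against 3.33% of all probes, and 0 higher, against 405 of 23907. The flavonol 3-O-glucosyltransferase VIT_19s0014g02070, which attaches a sugar to flavonols, had levels of -0.68, 0.21 and -0.36 on OXNAC33 arrays 1, 2 and 3, against 1.85, 1.55 and 2.11 on the control arrays. It fell by 2.11 ± 0.29 on the log2 scale (SE, adjusted p = 0.0361), with OXNAC33 replicate 3 between replicates 1 and 2. *LDOX*, which makes anthocyanidins, had levels of 0.50, 1.51 and -1.84 on OXNAC33 arrays against 2.35, 2.32 and 2.98 on control arrays, a change of -2.50 (adjusted p = 0.109). *DFR*, the dihydroflavonol reductase, had a difference of -0.80 (adjusted p = 0.108) and *LAR1*, a proanthocyanidin enzyme, of -1.04 (adjusted p = 0.19). *UFGT*, which glucosylates anthocyanidins, had a difference of -0.03 (adjusted p = 0.985). The flavonol glucosyltransferase and *DFR* and *LDOX* are the 3 genes listed by the study from these samples.

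In limma 3.33% of all probes were called lower in OXNAC33. Of 2 regulators listed, *MYBF1* (VIT_07s0005g01210), a MYB factor known in grapevine to activate the flavonol synthase promoter, was called lower. Its levels were -2.92, -1.35 and -1.91 on OXNAC33 arrays 1, 2 and 3, against 0.28, -0.41 and 0.19 on the control arrays. The groups were 0.93 apart and the lowest array was OXNAC33 replicate 1, not replicate 3. *MYBF1* fell by 2.08 ± 0.43 on the log2 scale (SE, adjusted p = 0.048), and it was listed by the study from these samples. A bZIP gene that the study annotates as HY5 (VIT_05s0020g01090), a light-signalling factor, had levels of 1.37, -0.37 and 0.84 on OXNAC33 arrays against -1.53, -0.80 and -1.25 on control arrays (change 1.80, adjusted p = 0.0701). The calls for *MYBF1*, the flavonol glucosyltransferase and the ligase were lost with the session as a block, with adjusted p-values of 0.0686, 0.0546 and 0.0569 in limma. They were also lost without the filter on dim probes (0.0955, 0.084 and 0.0883), with the replicate block (0.107, 0.0977 and 0.1) and with normexp (0.0598, 0.0594 and 0.0689). Spike-in scaling lost those of *MYBF1* (0.0765) and the ligase (0.0621). The calls held under the other scalings, the stricter filter, the other limma estimators and with flagged spots kept. Without any single array other than OXNAC33 replicate 2 the adjusted p-values of these genes were 0.0699 to 0.153.

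**Figure D4:**
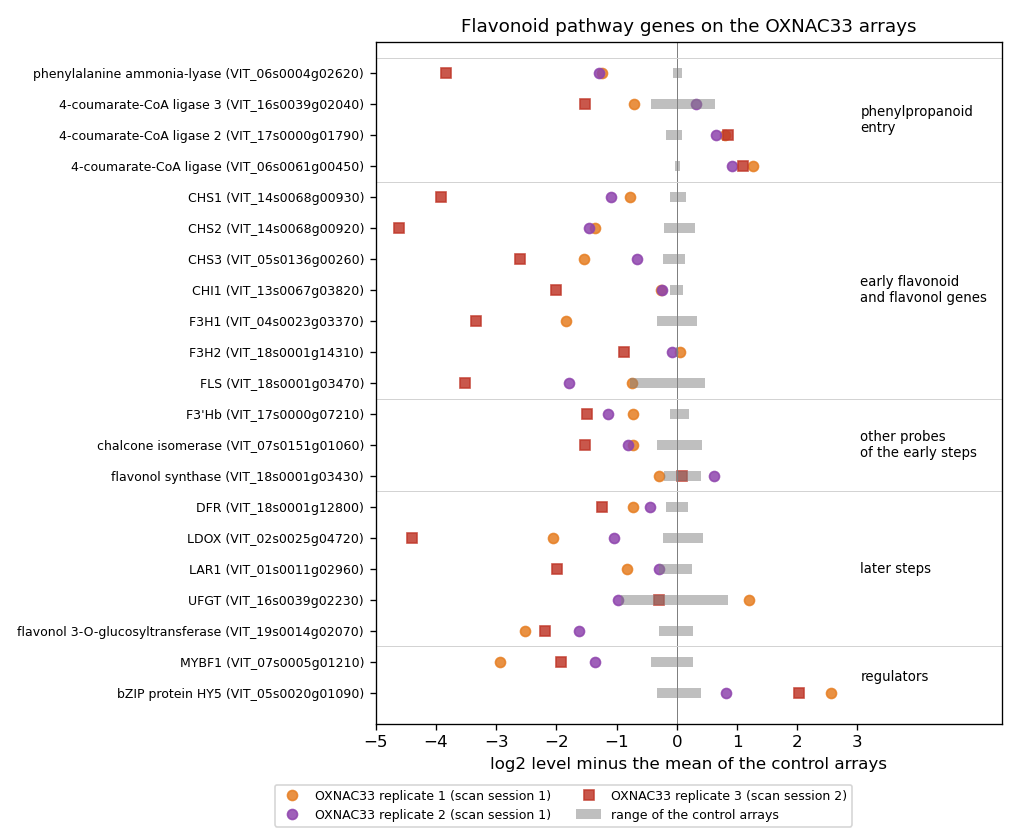
Log2 level on each OXNAC33 array minus the mean of the control arrays (horizontal axis) for the tested genes of the pathway. From top to bottom the blocks are phenylpropanoid entry, early flavonoid and flavonol genes, other probes of the early steps, later steps and regulators. Orange and purple circles are OXNAC33 replicates 1 and 2 (scan session 1), red squares are replicate 3 (session 2), grey bars are the range of the control arrays, and flagged spots are left out. Replicate 3 lies farthest to the left for *CHS1*, *CHS2*, phenylalanine ammonia-lyase and *LDOX*, and between the other replicates for *MYBF1* and the flavonol 3-O-glucosyltransferase.

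The leaf markers gave the state of the same samples. In limma 0 of the 6 were called, against 5.02% of all probes. At an unadjusted limma p under 0.05, 1 of the 6 was lower, against 15.6% of all probes. The median change of the 6 was -0.35. The widest was CAB-1 (VIT_07s0005g02220), a chlorophyll-binding protein gene, with levels of 4.63, 6.78 and 4.46 on OXNAC33 arrays 1, 2 and 3, against 7.64, 6.43 and 7.17 on the control arrays (change -1.79, adjusted p = 0.144). Its groups overlapped only through OXNAC33 replicate 2, the array with little *VviNAC33*. CAB-1 was low on OXNAC33 replicates 1 and 3, whereas *CHS1* and *CHS2* were very low on replicate 3 alone. Replicate 3 was the lowest of the arrays for 3 of the 6 markers. Their part in the differences of the flavonoid genes was not tested.

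Finally, the profile of each gene over the 6 arrays was set against that of every other tested probe. The measure was the root mean square difference of log2 levels after centring each profile on its own mean. It is a description over 6 arrays with no test, and flagged spots were kept. Of 23906 other probes, the closest to *CHS1* was the phenylalanine ammonia-lyase described above, with a difference of 0.188, where the median over all probes was 1.41. *CHS2* was the eighth closest to *CHS1*, and *CHS1* the eighth closest to *CHS2*, with a difference of 0.35. *CHS3* was nearer to *F3H1* (0.33) than to *CHS1* (0.65) or *CHS2* (0.79). *F3H2* was nearest to *CHI1* among the early flavonoid genes (0.41). That is no close match, since the median difference of *F3H2* from all probes was 0.502 and *CHI1* ranked 7458 of 23906. The probe closest to *FLS* was VIT_11s0016g01320 (0.284), annotated by the study as a MYB domain protein, and its levels were -3.36, -3.88 and -6.20 on OXNAC33 arrays against -2.98, -2.39 and -1.58 on control arrays. An ovate family protein (VIT_08s0007g02550) was the closest to *CHS2* and the next closest to *CHS1*. The 3 closest to *F3H1* were annotated as a formin, a C2H2 zinc finger protein and a polygalacturonase. Those nearest to *CHS3*, *CHI1* and *F3H2* included 1 annotated gene, a nodulin MtN21 family member near *CHS3*.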

How the data were processed

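Each sample was run on its own custom array (Cy3), and spots were quantified in Agilent Feature Extraction 10.5.1.1. From the deposited scanner output the processed intensity was used, from which the software had removed background and spatial trend, with no scaling across arrays. Other deposited flags, of 0 or 1, mark outlier, saturated and well-above-background spots. On an array 69.4% to 74.9% of probes were well above background, and saturation was found in 0. Precision is limited by the number of arrays. A further table of intensity values from the authors covered 23080 probes, and 100% of them matched a constant times the scanner value to within 1%. It served as an alternative.

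Intensities were log2 transformed, reduced by the 75th percentile of the array (773 to 1303), and stripped of outlier-flagged spots. Probes that passed the background flag on all 3 arrays of either group, with at least 2 values in each, were tested with limma 3.58.1 in R 4.3.3 (two-sided; checked on simulated data). Replicate numbers were not taken to pair arrays. P-values measure only the spread between these samples. The genes named are the 8 chosen, the pathway lists and, for each of the 8, the 3 closest profiles where annotated. Genes and lists were chosen with earlier results of these data known. Names come from the study, because the RefSeq table held 0 identifiers of this form. Probe sequences and coordinates were not used here. Slides could not be told apart from the headers. The normexp alternative planned on mean spot signals was run on median signals, with an offset of 50. That form of it was added after seeing the data.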

Additional observations from a re-analysis of the deposited data

How the results depend on the processing

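All 7 genes kept a negative change under every alternative in which they could be fitted. For several of these the change could not move. The filters, the replicate block, trend and robust estimation and the methods' t-test alter only the p-value. The authors' values are a constant multiple of the scanner values on each array. Over the other scalings, filters, blocks and limma estimators, changes ranged from -2.47 to -1.74 for *CHS1* (adjusted p 0.0761 to 0.277), -2.99 to -2.28 for *CHS2* (0.0756 to 0.203), -1.80 to -1.41 for *CHS3* (0.0533 to 0.16), -1.11 to -0.65 for *CHI1* (0.17 to 0.501), -3.33 to -2.01 for *F3H1* (0.0541 to 0.141), -0.44 to -0.11 for *F3H2* (0.308 to 0.904) and -2.19 to -1.81 for *FLS* (0.0879 to 0.215). The methods' t-test after adjustment gave higher p-values for *CHS1* (0.32), *CHS2* (0.26), *CHS3* (0.203), *F3H1* (0.265) and *FLS* (0.267), with 0.441 for *CHI1* and 0.568 for *F3H2*. The count of the 7 called was 0 in each, but 1 by the methods' t-test before adjustment, which was *CHS3* at -1.60. Leaving out each array in turn gave 0 to 1 called and *CHS3* changes of -2.07 to -1.11; the call came without OXNAC33 replicate 2. *F3H1* could be fitted only without OXNAC33 replicate 2 or control replicate 1, and under the session block it rests on the unflagged spots of session 2.

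The 1200 calls over all probes became 0 without the filter on dim probes, with either block (session or replicate) and with normexp (unadjusted p under 0.05 in 6314, 6844, 5978 and 5188 probes, against 6518 in the fit reported). They became 1806 with trend and robust estimation, 2 with the methods' t-test after adjustment and 5805 before it. Leaving out each array in turn gave 0 to 2554: 0 without any single control array, 9 without OXNAC33 replicate 1, 1 without replicate 3 and 2554 without replicate 2. The cause was not tested.

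The replicate block changed no call of the 7 genes, and *F3H1* could not be fitted with it. Deviations of same-numbered arrays correlated at r = 0.26, -0.22 and 0.19, so the numbers were not taken as pairing. For an OXNAC33 and a control array of the same scan session, r was 0.26, 0.14, 0.27 and 0.19. For arrays of different sessions r ranged from -0.41 to 0.04. The fit reported has no session term, and the effect of the session over all probes was not tested. *CHS1* relative to *FLS* reversed to -0.0673 with quantile scaling and -0.0543 with normexp, and ranged from -0.22 to 0.55 with an array left out. *F3H1* relative to *FLS* was 0.00064 with flagged spots kept and -0.71 to 0.57 with an array left out. Median scaling, normexp and spike-in scaling moved the median change of all probes to 0.11, -0.23 and 0.18. Normexp, spike-in scaling, keeping flagged spots and *F3H1* relative to *F3H2* were added after seeing the data.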
